A study of Mus musculus with 4 samples.

Results

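Cytokine-rich inflammatory neutrophils of mouse prostate tumours were described here: neutrophils that carried several transcripts of the alarmin Il1a, the cytokine Tnf, the interleukin-23 subunit Il23a and the fatty acid receptor Gpr84. They were chosen from measured counts of unique molecular identifiers (UMIs, each standing for a captured transcript) in droplet-based single-cell RNA sequencing. A cell was a gated neutrophil where S100a8, S100a9, Csf3r, Il1r2, G0s2 and Clec4d made up at least 1% of its UMIs and Cd3d, Cd3e and Cd3g together gave at most 1 UMI. A gated neutrophil was called cytokine-rich where Il1a, Tnf, Il23a and Gpr84 together gave at least 4 UMIs, Siglecf, Ltc4s and Gpc3 gave fewer than 3 and Rsad2, Ifit1, Ifit2 and Ifit3 fewer than 10. Of 3381 kept cells, 1124 were gated neutrophils and 235 were cytokine-rich: 82 and 53 in TKO replicates 1 and 2, and 72 and 28 in DKO replicates 1 and 2. The 333 "other neutrophils" passed the same gates with fewer than 4 UMIs of those cytokine genes, and numbered 82 and 88 in the TKO libraries and 74 and 89 in the DKO libraries. A further 333 neutrophils held 3 or more UMIs of Siglecf, Ltc4s and Gpc3 (the SiglecF gate), 208 held 10 or more of the interferon genes, and 15 both.

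The TKO tumours came from mice with Pygo2L/L beside Smad4L/L, Nkx3.1CreERT2 and a further floxed gene; the DKO tumours came from mice with the same alleles other than Pygo2L/L. There were 2 libraries of each, and both groups thus carry the floxed Smad4 alleles, that further gene and the Cre. The Cre is driven from Nkx3.1, a prostate epithelial gene, and is activated by tamoxifen, so neutrophils are not the cells it targets. The design text calls the tumours nTKOLuc and nDKOLuc and names 10 and 17 weeks after tamoxifen, and no label ties a library to a time. Cells were freed with enzymes, depleted of red cells and, with Annexin V, of dying cells, tagged with hashtag antibodies and loaded together, so the libraries are tag-separated samples of a combined load. In all 235 cytokine-rich cells the tag of the cell's own library was the highest, and no barcode was shared between libraries. Both follow from separating the libraries by tag and do not check sample identity. These cells' summed counts differed between every pair of libraries (chi-square per degree of freedom 4.37 to 7.78). Pygo2 gave 1 and 6 UMIs in the cytokine-rich cells of the TKO libraries and 2 and 1 in those of the DKO libraries. In cells gated on Epcam and keratins it stood at 15.3 and 5.04 CPM in the TKO-labelled libraries and 5.60 and 9.04 CPM in the DKO-labelled libraries (CPM, UMIs of a gene per 1000000 UMIs of the summed cells). These levels rested on 23 and 3 UMIs in the TKO-labelled libraries and 6 and 32 UMIs in the DKO-labelled libraries. The library labelled TKO replicate 1 was thus highest by CPM, with few counts in TKO replicate 2 and DKO replicate 1. The labels do not say which exon is removed, and a 3' tag outside it checks nothing.

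Neutrophils are short-lived phagocytes that enter tumours from the blood and can be triggered through Toll-like, C-type lectin, IL-1 and TNF receptors. Those receptors converge on NF-kB, a transcription factor held in the cytoplasm by inhibitors such as IkBalpha (Nfkbia), and NF-kB in turn drives the genes of cytokines, chemokines, adhesion molecules and its own inhibitors. IL-1alpha and TNF act on endothelium and stroma to bring in more leukocytes, and IL-23 maintains IL-17-producing T cells. The promoters of these genes, 300 bases around the start site from RefSeq (GRCm38.p6), are shown because the cells were chosen on Il1a, Tnf and Gpr84 and because Icam1 moved with them. Capitals mark matches, on either strand, to a loose NF-kB motif (GGG, any 5 bases, CC) or to TGANTCA (AP-1); these matches are descriptions of letters and not binding sites.
Il1a, chr2:129309923-129310222, minus strand: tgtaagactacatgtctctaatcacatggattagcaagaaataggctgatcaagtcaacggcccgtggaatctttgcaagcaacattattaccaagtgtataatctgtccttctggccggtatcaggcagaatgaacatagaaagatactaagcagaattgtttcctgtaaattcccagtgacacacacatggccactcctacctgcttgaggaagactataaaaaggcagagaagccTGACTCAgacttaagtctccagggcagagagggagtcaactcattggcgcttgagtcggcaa
Tnf, chr17:35201958-35202257, minus strand: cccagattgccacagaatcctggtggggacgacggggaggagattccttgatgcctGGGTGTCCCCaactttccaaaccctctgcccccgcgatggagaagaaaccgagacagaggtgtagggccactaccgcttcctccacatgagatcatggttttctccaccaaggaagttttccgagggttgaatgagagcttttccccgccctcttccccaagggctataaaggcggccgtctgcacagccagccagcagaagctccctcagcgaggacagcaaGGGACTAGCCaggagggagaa
Gpr84, chr15:103310389-103310688, minus strand: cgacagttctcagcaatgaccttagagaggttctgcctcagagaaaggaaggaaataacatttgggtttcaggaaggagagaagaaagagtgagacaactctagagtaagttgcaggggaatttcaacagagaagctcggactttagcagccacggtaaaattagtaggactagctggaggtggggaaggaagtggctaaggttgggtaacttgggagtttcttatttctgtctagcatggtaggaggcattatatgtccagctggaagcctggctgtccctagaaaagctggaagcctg
Icam1, chr9:21015690-21015989, plus strand: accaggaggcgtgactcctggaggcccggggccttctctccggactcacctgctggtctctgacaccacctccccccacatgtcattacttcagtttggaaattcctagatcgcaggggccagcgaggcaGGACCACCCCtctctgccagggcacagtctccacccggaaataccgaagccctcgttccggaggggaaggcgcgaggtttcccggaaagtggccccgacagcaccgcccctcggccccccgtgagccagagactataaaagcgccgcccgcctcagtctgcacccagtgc
The Il1a promoter held 1 AP-1 match 12 bases before the start site. Tnf held an NF-kB match 194 bases before the start site, which reads as a match on both strands, and another 29 bases after it. Icam1 held 1 NF-kB match on the minus strand 120 bases before the start site, and the Gpr84 window held neither motif. Of 32841 promoters of this length, 50.8% held the NF-kB motif and 7.81% held TGANTCA. Il23a is named only.

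The genes that chose the cells are given as levels, with no test. Il1a (ENSMUSG00000027399, chromosome 2, 129299610 to 129309972, minus strand, mm10) stood at 1614 and 663 CPM in the TKO libraries and 2314 and 1271 CPM in the DKO libraries, against 63.1, 54.0, 67.5 and 73.5 CPM in the other neutrophils of the same libraries. Tnf (ENSMUSG00000024401, chromosome 17, 35199381 to 35202007, minus strand) stood at 411 and 803 CPM in the TKO libraries and 1297 and 479.7 CPM in the DKO libraries. Il23a (ENSMUSG00000025383, chromosome 10, 128296139 to 128298752, minus strand) stood at 244 and 209.9 CPM in the TKO libraries and 999.7 and 347 CPM in the DKO libraries. Gpr84 (ENSMUSG00000063234, chromosome 15, 103308235 to 103310612, minus strand) stood at 309 and 338 CPM in the TKO libraries and 394 and 168 CPM in the DKO libraries. Mean levels in cytokine-rich, SiglecF-gate and other neutrophils were 1465, 1254 and 64.5 CPM for Il1a and 748, 379 and 48.4 CPM for Tnf. They were 450.0, 170.0 and 8.31 CPM for Il23a, and 302, 224 and 30.5 CPM for Gpr84. In TKO replicate 2, Il1a was higher in SiglecF-gate neutrophils, at 909 CPM, than in cytokine-rich cells, at 663 CPM. Among cytokine-rich cells DKO replicate 1 was highest for all 4 genes, and TKO replicate 2 was lowest for Il1a and Il23a. The calprotectin subunits S100a8 and S100a9, which also served the gate, averaged 13573 ± 2564 and 15939 ± 2601 CPM in cytokine-rich cells and 20796 ± 3267 and 29891 ± 6580 CPM in other neutrophils (SD, n = 4 libraries).

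Cytokine-rich cells varied widely among themselves. The summed UMIs of the 4 genes had a median of 12 per cell, an upper quartile of 24.5 and a maximum of 247; the library medians were 12 and 8 in TKO and 17.5 and 11.5 in DKO. At the threshold, 29 cytokine-rich cells held 4 UMIs and 31 other neutrophils held 3. Of the 235 cells, 44 had a UMI of a single gene of the set, 82 of 2, 74 of 3 and 35 of all 4. Cells with all 4 made up 12.2% and 7.55% in the TKO libraries and 27.8% and 3.57% in the DKO libraries. Il1a had a UMI in 201 of 235 cells (85.5%, exact 95% binomial interval 80.4% to 89.8%) and Tnf in 160 (68.1%, 61.7% to 74.0%). Gpr84 had a UMI in 127 (54.0%, 47.4% to 60.5%) and Il23a in 82 (34.9%, 28.8% to 41.4%). These intervals pool the cells of all libraries and cover counting error only. By library, Il1a was at 90.2% and 71.7% in TKO and 90.3% and 85.7% in DKO. Il23a was at 26.8% and 24.5% in TKO and 50.0% and 39.3% in DKO. In T cells, which served as a background for free RNA, the shares were 10.6% for Il1a, 2.15% for Gpr84 and 2.58% for Il23a, at a median depth of 11780.5 UMIs against 6690 in cytokine-rich cells. Tnf, which T cells make themselves, was at 22.6% there. Cytokine-rich cells were chosen on these 4 genes, so their higher shares followed from the rule. The T cell shares are therefore a description and no test. Il23a and Il1a overlapped in 70 cells, which is 85.4% of the Il23a-bearing cells and 34.8% of the Il1a-bearing cells. Over all 235 cells the shares were 85.5% for Il1a and 34.9% for Il23a. Of Tnf-bearing and Gpr84-bearing cells, 83.1% and 82.7% had Il1a. Of Il23a-bearing and Gpr84-bearing cells, 79.3% and 74.8% had Tnf, against 68.1% of all 235, and 36.2% of Gpr84-bearing cells had Il23a. Choosing cells on the summed UMIs of the 4 genes shapes such overlaps, so they cannot show whether the genes go together. Within the 4 genes' UMIs, the Il1a share was 62.6% and 32.9% in the TKO libraries and 46.2% and 56.1% in the DKO libraries, and the Tnf share was 16.0% and 39.9% in TKO and 25.9% and 21.2% in DKO. In TKO replicate 2 Tnf, and in the other libraries Il1a, thus gave the most of these UMIs.

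The cytokine genes were not confined to these cells. Among SiglecF-gate neutrophils 243 of 333 (73.0%) held at least 4 of these UMIs, among interferon-gate neutrophils 84 of 208 (40.4%), and among cells outside the neutrophil gate 386 of 2257 (17.1%). Of 572 gated neutrophils past the cytokine threshold, 235 (41.1%) were therefore cytokine-rich by the full rule.

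**Figure D1:**
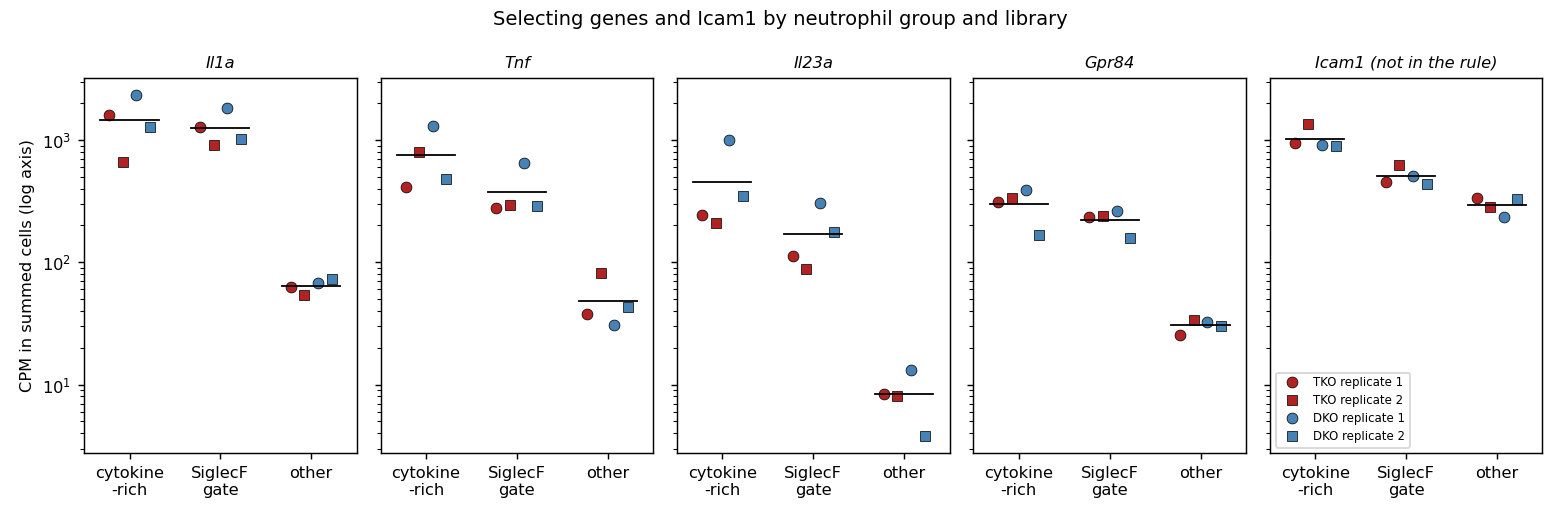
Levels of the 4 selecting genes and of Icam1, which the rule did not use, as CPM on a log axis in cytokine-rich, SiglecF-gate and other neutrophils; points are libraries (red TKO, blue DKO, circle replicate 1, square replicate 2) and lines are means of 4. Icam1 averaged 1023 CPM in cytokine-rich cells, 508 CPM in SiglecF-gate cells and 297 CPM in other neutrophils.

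Neutrophil genes that the rule did not use (Cxcr2, Mmp9, Hdc, Trem1, Mxd1, Acod1 and others, 10 genes) summed to 11946 and 11479 CPM in the cytokine-rich cells of the TKO libraries and 10161 and 12304 CPM in those of the DKO libraries. In other neutrophils the sums were 11186 and 12385 CPM (TKO) and 13871 and 13537 CPM (DKO), higher in all libraries but TKO replicate 1. Acod1 alone gave 3173 and 3473 CPM (TKO) and 2812 and 4032 CPM (DKO) in cytokine-rich cells. Ly6g, the gene of the usual surface marker of mouse neutrophils, gave 0 and 0 UMIs in the TKO libraries, which allows up to 5.30 and 9.12 CPM (3 counts), and 9 and 6 UMIs in the DKO libraries. Outside the neutrophil gate the same list gave 572 to 828 CPM. The 8 macrophage markers summed to 307 and 274 CPM in TKO and 262 and 199 CPM in DKO, against 185 and 294 CPM (TKO) and 148 and 270 CPM (DKO) in other neutrophils. Of these markers C1qa, C1qb and C1qc gave 6, 8 and 5 UMIs in all 235 cells and Mrc1 gave 4. Adgre1 went the other way, at 136 and 54.7 CPM (TKO) and 96.5 and 40.8 CPM (DKO) in cytokine-rich cells. In other neutrophils Adgre1 stood at 33.7 and 48.0 CPM (TKO) and 43.5 and 30.2 CPM (DKO), lower in each library. Apoe was higher in cytokine-rich cells than in other neutrophils in DKO replicate 1 alone. The 6 monocyte markers summed to 349.6 and 100.4 CPM (TKO) and 137 and 184 CPM (DKO), against 204 and 249.9 CPM (TKO) and 172 and 160.3 CPM (DKO) in other neutrophils, with Ccr2 at 4 UMIs. The 8 dendritic markers summed to 131 to 194 CPM, against 139 to 206 CPM in other neutrophils, with Xcr1 at 0. Of the 6 mast cell markers Cpa3, Mcpt4 and Fcer1a were at 0; the list summed to 2291 to 2862 CPM, nearly all from Hdc, which neutrophils also express. The 4 basophil markers were at 0. Epithelial markers (6 genes, none at 0) summed to 157 and 73.0 CPM (TKO) and 187 and 209 CPM (DKO), against 86.3 and 162 CPM (TKO) and 76.2 and 86.7 CPM (DKO) in other neutrophils, and were thus higher in cytokine-rich cells in 3 of 4 libraries. The 5 fibroblast markers summed to 589.7 to 629 CPM, against 625 to 875 CPM in other neutrophils. The T, NK, B and endothelial lists each summed to at most 71.4 CPM in cytokine-rich cells. The part of these levels in the results was not tested beyond leaving out cells with 2 or more UMIs of lineage-defining genes, which gave 409 called genes against other neutrophils. Cytokine-rich cells were slightly deeper than other neutrophils, with median UMIs of 6557.5 and 6124 (TKO) and 7052 and 6601 (DKO) against 6007.5 and 5697.5 (TKO) and 6349.5 and 6163 (DKO). The cytokine-rich cells of a library held 195947 to 566386 UMIs in all.

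Cytokine-rich cells made up 20.4% and 23.1% of the gated neutrophils in the TKO libraries and 27.1% and 12.3% in the DKO libraries. The exact 95% binomial intervals, which cover counting error only, were 16.6% to 24.7% and 17.8% to 29.2% in TKO, and 21.8% to 32.8% and 8.32% to 17.3% in DKO. Both extremes were DKO libraries, with the TKO libraries between them. The means were 21.8% ± 1.91 in TKO and 19.7% ± 10.5 in DKO (SD, n = 2 each), a difference of 2.12 percentage points with an exact two-sided permutation p of 1, where 2 against 2 allow none below 0.33. Without DKO replicate 2 the difference was -5.27 points and without DKO replicate 1 it was 9.52 points.

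**Figure D2:**
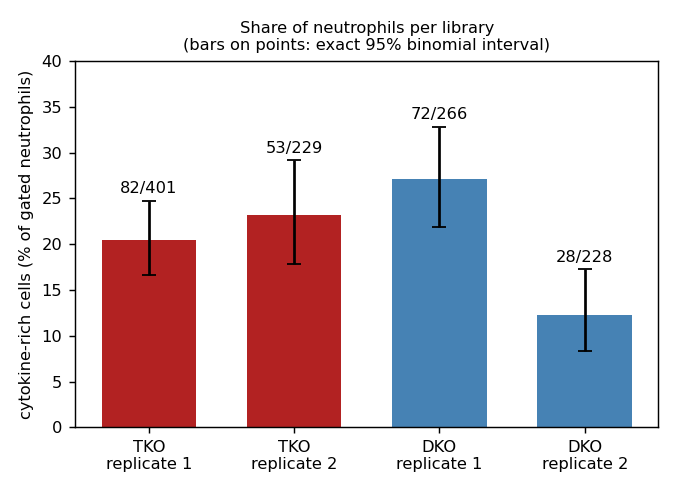
Cytokine-rich cells as a percent of gated neutrophils in each library, with exact 95% binomial intervals and the cell numbers above the bars. DKO replicate 1 is highest at 27.1%, DKO replicate 2 lowest at 12.3%, and the TKO libraries lie between.

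Outside the rule, cytokine-rich cells had more Icam1, Nfkbia and Tnfaip3 of the NF-kB response than other neutrophils. They also had more of the chemokines Cxcl2 and Ccl3 and of the survival gene Bcl2a1. The sheddase Adam8 and the RhoA inhibitor Ripor2 were lower. Of 4389 genes tested outside the rule, 508 (11.6%) passed, 195 (4.44%) higher and 313 (7.13%) lower in cytokine-rich cells (edgeR's quasi-likelihood test with a library term, Benjamini-Hochberg adjusted p under 0.05). The cells were divided on expression, so genes that vary with the 4 cytokine genes had to differ: the test says that a difference recurred over the 4 libraries and not that the cells are a separate type. The count was 267 without TKO replicate 2, 233 without DKO replicate 1, 140 with no library term and 333 with DESeq2 (94 higher and 239 lower). In cells matched for depth within libraries it was 339, of which 306 were among the 508. The 24 leading genes, 12 each way, kept their calls with each library left out, in depth-matched cells and with counts thinned to 3000 UMIs per cell.

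**Figure D3:**
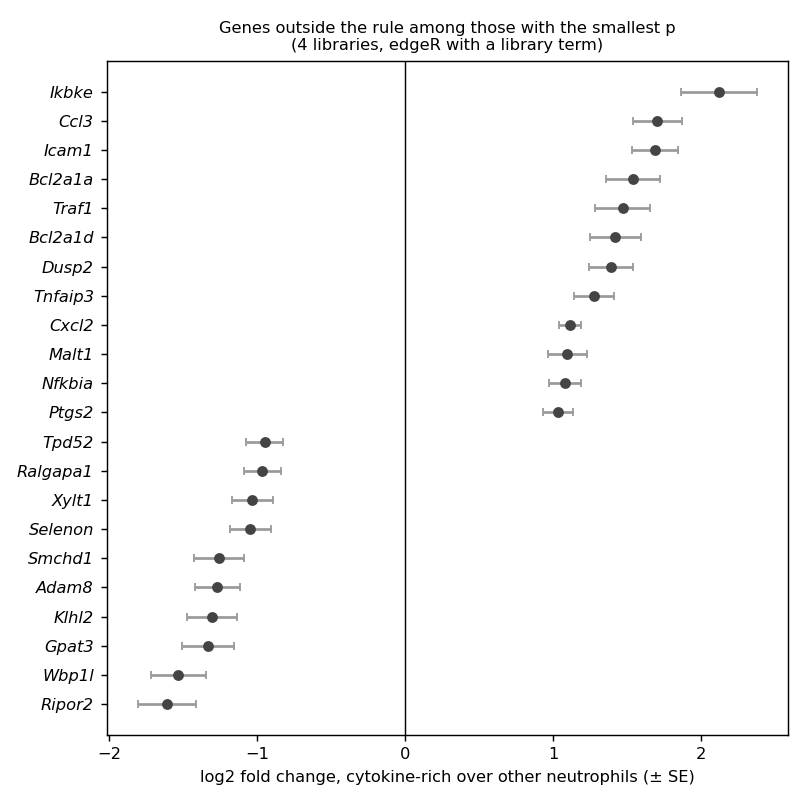
Log2 fold changes of 22 leading genes outside the rule, cytokine-rich over other neutrophils, with standard errors from the edgeR fit over 4 libraries. Ikbke lies highest at 2.13 and Ripor2 lowest at -1.61.

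Of 24 NF-kB target genes, 22 were tested, 14 were higher in cytokine-rich cells and 0 lower, with a median log2 fold change of 0.50 over the 22 and of 0.02 over all genes tested. The shares over all genes tested were 4.44% higher and 7.13% lower. Icam1 (ENSMUSG00000037405, chromosome 9, 21015985 to 21028817, plus strand), the adhesion ligand of leukocyte integrins, stood at 939, 1344, 915 and 893 CPM in cytokine-rich cells, against 337, 286, 235 and 330.0 CPM in other neutrophils (TKO 1, TKO 2, DKO 1 and DKO 2 in this order here and below). The groups did not overlap, with a log2 fold change of 1.69 ± 0.16 (SE, n = 4 libraries, edgeR adjusted p = 0.0001). Nfkbia, the inhibitor that returns NF-kB to the cytoplasm, had 3469, 4319, 6413 and 4420 CPM in cytokine-rich cells, against 1692, 1647, 2552 and 2344 CPM in other neutrophils, a log2 fold change of 1.08 ± 0.11 (SE, n = 4 libraries, edgeR adjusted p = 0.0001). Tnfaip3, the deubiquitinase A20 that ends TNF receptor signalling, had 1013, 1226, 1417 and 1158 CPM in cytokine-rich cells, against 383, 459.8, 466 and 568 CPM in other neutrophils, a log2 fold change of 1.28 ± 0.13 (SE, n = 4 libraries, edgeR adjusted p = 0.00017). Both inhibitors of the pathway were thus higher in every library, with DKO replicate 1 highest. The TNF receptor adaptor Traf1 averaged 451 ± 115 CPM in cytokine-rich cells and 153 ± 26.1 CPM in other neutrophils (SD, n = 4). The caspase-8 inhibitor Cflar averaged 505 ± 156 CPM in cytokine-rich cells and 194 ± 23.6 CPM in other neutrophils, and the chemerin-binding receptor Ccrl2 averaged 3718 ± 669 CPM in cytokine-rich cells and 2112 ± 485 CPM in other neutrophils. Outside the list, the kinase Ikbke of the IkB kinase family had 205, 179, 245 and 107 CPM in cytokine-rich cells, against 48.4, 48.0, 26.1 and 33.9 CPM in other neutrophils, a log2 fold change of 2.13 ± 0.26 (SE, n = 4 libraries, edgeR adjusted p = 0.00039). Malt1, the paracaspase that activates NF-kB downstream of C-type lectin and antigen receptors, rose by 1.10 ± 0.13. The list's count of higher genes was 7 without TKO replicate 2 and 6 with no library term, and 0 genes of the list were lower in any of the alternatives.

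Of 20 cytokines and growth factors, 11 were tested and 3 were higher, with 0 lower and a median log2 fold change of 0.39. Over all genes tested, 4.44% were higher and 7.13% lower. Il1b had 17654, 12601, 21582 and 17066 CPM in cytokine-rich cells, against 11306, 7882, 14896 and 10801 CPM in other neutrophils, a log2 fold change of 0.54 ± 0.08 (SE, n = 4 libraries, edgeR adjusted p = 0.00099). Its natural antagonist Il1rn rose alongside, with 3132, 2950, 2719 and 2429 CPM in cytokine-rich cells, against 1985, 1771, 1597 and 1337 CPM in other neutrophils (log2 0.67 ± 0.11). Each library's cytokine-rich cells were higher than its other neutrophils for both genes, and for Il1b the groups overlapped between libraries. The third, the growth factor Hbegf, averaged 54.3 ± 27.6 CPM in cytokine-rich cells and 21.9 ± 17.7 CPM in other neutrophils; it lost its call in 3 of the 4 fits that left out a library. Oncostatin M (Osm) did not pass at -0.37 ± 0.14, nor did the granulocyte growth factor Csf3 at 1.04 ± 0.45, which had 40.6, 88.2, 63.7 and 61.2 CPM in cytokine-rich cells, against 12.6, 18.0, 15.2 and 107 CPM in other neutrophils.

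Among 16 chemokines, 11 were tested, 4 were higher and 0 lower, with a median of 0.06, against 4.44% higher and 7.13% lower over all genes. Cxcl2, a ligand of the neutrophil receptor Cxcr2, stood at 24621, 18949, 38074 and 29661 CPM in cytokine-rich cells, against 11171, 8438, 16143 and 12304 CPM in other neutrophils, a log2 fold change of 1.12 ± 0.07 (SE, n = 4 libraries, edgeR adjusted p = 2.8e-06). Cxcl1, which binds the same receptor, had 313, 279.8, 349 and 265 CPM in cytokine-rich cells, against 173, 68.0, 135 and 126 CPM in other neutrophils (log2 1.22 ± 0.20). Ccl3 and Ccl4, chemokines that draw monocytes and T cells, rose by 1.70 ± 0.16 and 1.23 ± 0.20; Ccl3 stood at 2179, 1274, 4419 and 2526 CPM in cytokine-rich cells, against 562, 542, 1423 and 494 CPM in other neutrophils. In DKO replicate 1 both classes of neutrophil were highest for Ccl3. Ptgs2, the cyclooxygenase of prostaglandin synthesis, had 3904, 1953, 5510 and 3664 CPM in cytokine-rich cells, against 2029, 848, 2393 and 1669 CPM in other neutrophils, a log2 fold change of 1.03 ± 0.10 (SE, n = 4 libraries, edgeR adjusted p = 0.0001).

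Of 11 cell survival genes 10 were tested (median 0.42), and the 3 higher were all copies of Bcl2a1, the anti-apoptotic A1 gene: Bcl2a1a, Bcl2a1b and Bcl2a1d rose by 1.54 ± 0.18, 1.09 ± 0.17 and 1.42 ± 0.17. The copies are nearly identical, so the split of reads between them is uncertain. Bcl2a1b had 1999, 1986, 2794 and 2021 CPM in cytokine-rich cells, against 1078, 1127, 696 and 992 CPM in other neutrophils, and the groups did not overlap. Mcl1, the main survival factor of neutrophils, did not pass at -0.03 ± 0.11. Of 25 pattern and danger receptors 22 were tested, 3 were higher and 1 lower, with a median of -0.00. For this list and the survival list, the shares over all genes tested were 4.44% higher and 7.13% lower. The higher genes were the C-type lectins Clec4e (Mincle, 0.68 ± 0.12), Clec5a (0.93 ± 0.21) and Clec4n (Dectin-2, 0.49 ± 0.15); Clec5a lost its call without TKO replicate 1 and without DKO replicate 1, and Clec4n with any library left out. The lower gene was Il1rap, the shared chain of the IL-1 receptor, with 441, 389, 807 and 500.1 CPM in cytokine-rich cells, against 939, 636, 1578 and 764 CPM in other neutrophils, a log2 fold change of -0.94 ± 0.14 (SE, n = 4 libraries, edgeR adjusted p = 0.00094). Cd14, the lipopolysaccharide co-receptor, had a log2 fold change of 0.00 ± 0.09.

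The leading lower genes differed in kind. Adam8, a sheddase of the cell surface, had 263, 283, 241 and 378 CPM in cytokine-rich cells, against 558, 574, 701 and 798 CPM in other neutrophils (-1.27 ± 0.15). Ripor2, an inhibitor of RhoA in polarising neutrophils, fell furthest of the 12 leading lower genes, to 132, 100.4, 110.0 and 102 CPM in cytokine-rich cells, against 267, 416, 337 and 283 CPM in other neutrophils (-1.61 ± 0.20). Others of these 12 were Wbp1l, Klhl2, the Ral GTPase-activating subunit Ralgapa1, the glycerol-phosphate acyltransferase Gpat3, the chromatin protein Smchd1, Tpd52, the xylosyltransferase Xylt1 and the selenoprotein Selenon, at -1.53 to -0.95.

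Of 15 adhesion and trafficking genes 14 were tested, 1 was higher and 6 lower, with a median of -0.31. For this list and the granule list below, the shares over all genes tested were 4.44% higher and 7.13% lower. Cxcr4, the marrow-retention and ageing receptor, had 259.5, 596, 259 and 291 CPM in cytokine-rich cells, against 554, 882, 422 and 628 CPM in other neutrophils (-0.94 ± 0.15), the hyaluronan receptor Cd44 fell by 0.59 ± 0.10 and the chemokine receptor Ccr1 by 0.61 ± 0.13. Integrins Itgal and Itgam and the adhesion glycoprotein Selplg also fell, at -0.78, -0.47 and -0.66, and each lost its call with DKO replicate 1 or TKO replicate 2 left out. The tetraspanin Cd63 was the higher gene (0.59 ± 0.18), and its call ended without TKO replicate 1, DKO replicate 1 or DKO replicate 2. Of 20 granule and early neutrophil genes 15 were tested, with 2 higher and 5 lower and a median of -0.26. Mmp9, the gelatinase, had 1022, 1101, 1005 and 1352 CPM in cytokine-rich cells, against 753, 686, 494 and 596 CPM in other neutrophils (0.74 ± 0.14). The glycoprotein Lrg1 fell by 0.90 ± 0.16, to 249, 246, 303 and 296 CPM in cytokine-rich cells, against 505, 418, 609 and 387 CPM in other neutrophils. Cxcr2 fell by 0.76 ± 0.18 and lost its call without DKO replicate 1; the collagenase Mmp8 (-1.23 ± 0.33) kept its call, of the fits that left out a library, only without DKO replicate 2. Wfdc21, named here after its values were seen, fell by 0.83 ± 0.25. The chitinase-like Chil3 passed at 1.10 ± 0.28, without a call when DKO replicate 1 or DKO replicate 2 was left out, in depth-matched cells, at a threshold of 3 cytokine UMIs, without cells of other lineages or with no library term; its level was 26.5, 9.12, 525 and 469.5 CPM in cytokine-rich cells, against 29.5, 2.0, 144 and 234 CPM in other neutrophils. TKO replicate 1 was thus not higher.

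Of 19 tested glycolysis and hypoxia genes, 2 were higher and 3 lower, with a median of -0.08. For this list and the immunosuppression list below, the shares over all genes tested were 4.44% higher and 7.13% lower. Hexokinase 2 (Hk2), the first enzyme of glycolysis, stood at 291, 167, 419 and 189 CPM in cytokine-rich cells, against 101, 22.0, 111 and 121 CPM in other neutrophils, a log2 fold change of 1.57 ± 0.26 (SE, n = 4 libraries, edgeR adjusted p = 0.003). The hypoxia-inducible lipid droplet protein Hilpda averaged 681 ± 319.9 CPM in cytokine-rich cells and 356 ± 67.4 CPM in other neutrophils and lost its call without TKO replicate 1, DKO replicate 1 or DKO replicate 2. The lactate exporter Slc16a3, the glucose transporter Slc2a3 and the oxygen-sensing factor Hif1a fell by 0.74 ± 0.14, 1.45 ± 0.25 and 0.71 ± 0.15. Slc2a3 had 215, 292, 181 and 489.9 CPM in cytokine-rich cells, against 615, 526, 973 and 766 CPM in other neutrophils, and lost its call in depth-matched cells and without cells of other lineages. In the immunosuppression list, 12 genes were tested (median -0.08): Ptgs2 and the checkpoint receptor Havcr2 (Tim-3) were higher, and Wfdc17 and Lgals9, a Tim-3 ligand, were lower. Havcr2 had 83.0, 137, 96.5 and 117 CPM in cytokine-rich cells, against 33.7, 54.0, 10.9 and 52.8 CPM in other neutrophils (1.50 ± 0.30); Lgals9 (-0.93 ± 0.26) lost its call without TKO replicate 2 or DKO replicate 1. Cd274, which encodes PD-L1, did not pass at 0.62 ± 0.20.

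Of 10 tested genes from a list of ageing tumour neutrophils 4 were higher and 0 lower (median 0.42), namely Clec5a, the cyclophilin Ppia (0.72 ± 0.17), the cytokine Mif (0.70 ± 0.19) and Cd63, and all 4 lost their calls without DKO replicate 1. Type I interferon genes outside the gate were tested for 16 members, of which 0 were higher and 3 lower (median -0.29): Slfn4, Oas3 and Isg20 fell by 0.69 ± 0.15, 1.03 ± 0.27 and 0.79 ± 0.21, each without a call when TKO replicate 1 or DKO replicate 1 was left out. Of 5 tested interferon gamma GTPases and related genes 0 passed (median 0.18), with Irf1 at 0.88 ± 0.31 and Gbp2 at 0.18 ± 0.40. Beside these lists, the shares over all genes tested were 4.44% higher and 7.13% lower.

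Of 23 immediate early and stress genes all were tested, with 2 higher and 3 lower and a median of -0.12. Over all genes tested, 4.44% were higher and 7.13% lower. Dusp2, a phosphatase of MAP kinases in activated leukocytes, had 418, 624, 488 and 475 CPM in cytokine-rich cells, against 170.5, 209.9, 172 and 160.3 CPM in other neutrophils, a log2 fold change of 1.39 ± 0.15 (SE, n = 4 libraries, edgeR adjusted p = 0.00017). The orphan nuclear receptor Nr4a1 rose by 0.60 ± 0.14 and lost its call without TKO replicate 2 or DKO replicate 1, while the MAP kinase phosphatase Dusp1 fell by 0.55 ± 0.11, with no call in depth-matched cells. The AP-1 member Fosb fell by 0.57 ± 0.14, with no call without TKO replicate 1 or TKO replicate 2. Hspa1a, an inducible HSP70, had 19.4, 30.4, 42.5 and 20.4 CPM in cytokine-rich cells, against 728, 356, 185 and 33.9 CPM in other neutrophils. The fold change was -3.49 ± 0.53, and -2.60 without TKO replicate 1, the library with the highest level in other neutrophils. Hspa1a lost its call with no library term (edgeR adjusted p = 0.052) and did not enter the fits of thinned or depth-matched cells. Against SiglecF-gate neutrophils it did not pass, at -0.19 ± 0.44. Hspa1b did not pass against other neutrophils, at -2.68 ± 0.84. Hspa1a and Hspa1b are near-identical copies, so reads may be split between them.

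Levels were also read by the cytokine count in 4 steps, and genes differed in their course. Gated neutrophils outside the SiglecF and interferon gates were divided into those with 0, 1 to 3, 4 to 11 and 12 or more UMIs of the 4 genes. Icam1 had 172, 279.8, 118 and 198 CPM at 0 UMIs, 510.3, 291, 359 and 418 CPM at 1 to 3, 721, 1067, 446 and 528 CPM at 4 to 11 and 1088, 1804, 1249 and 1277 CPM at 12 or more. It was higher at each step in all 4 libraries, by little below the threshold in TKO replicate 2. Nfkbia had 1533, 1382, 1740 and 2307 CPM at 0 UMIs and 3586, 5210, 7874 and 5256 CPM at 12 or more. Tnfaip3 had 295, 499, 304 and 580.3 CPM at 0 UMIs and 1160, 1820, 1860 and 1173 CPM at 12 or more. Nfkbia was higher at each step in every library, whereas Tnfaip3 was lower at 1 to 3 than at 0 UMIs in both replicates numbered 2. The chemokine Cxcl2 was higher at each step in every library, and Il1b was so in every library other than DKO replicate 2. Ptgs2 was lower at 1 to 3 than at 0 UMIs in both replicates numbered 2. Ccl3 was lower at 1 to 3 than at 0 in TKO replicate 1 and lower at 4 to 11 than at 1 to 3 in DKO replicate 1. Traf1 had 209, 99.0, 127 and 175 CPM at 0 UMIs, 99.5, 164, 139 and 198 CPM at 1 to 3, 613, 283, 483 and 388 CPM at 4 to 11 and 613, 712, 340.2 and 304 CPM at 12 or more. Its step was thus at the threshold, and above it the level was higher again in TKO replicate 2 alone. Depth ran the same way as the count, with a pooled median of 5968 UMIs per cell at 0 and 7104 at 25 or more, and its part in these levels was not tested. These steps are a description, with no test.

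**Figure D4:**
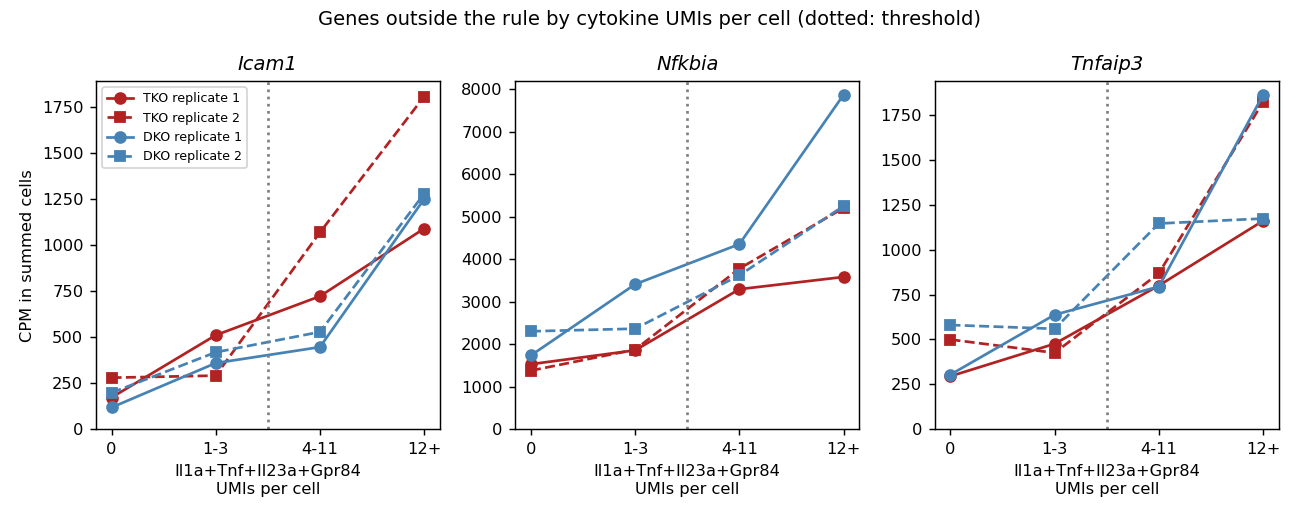
CPM of Icam1, Nfkbia and Tnfaip3 in summed cells against the UMIs of Il1a, Tnf, Il23a and Gpr84 per cell, by library (red TKO, blue DKO, solid replicate 1, dashed replicate 2); the dotted line is the threshold of 4 UMIs. Icam1 reached 1088 to 1804 CPM in cells with 12 or more UMIs.

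SiglecF-gate neutrophils were compared because most of them also carried the cytokine transcripts that chose the cytokine-rich cells. Nfkbia, Tnfaip3, Il1f9 and Lrg1 were higher in cytokine-rich cells, and Mt1, Rgs1, Adamdec1 and mt-Nd1 were lower. By the rule every cytokine-rich cell was past the cytokine threshold, against 73.0% of SiglecF-gate cells, and the division was again made on expression. Of 5078 genes outside the rule, 1650 (32.5%) passed, 982 (19.3%) higher and 668 (13.2%) lower in cytokine-rich cells; with DESeq2 the split was 777 higher and 311 lower. All 22 tested NF-kB targets were higher, with a median log2 fold change of 1.33 against -0.03 over all genes tested, and the type I interferon list had 13 of 16 higher. So had 7 of 11 cytokines, 8 of 11 chemokines and 19 of 22 pattern and danger receptors, with 0 lower in each of these lists. Against other neutrophils, 14 of 22 NF-kB targets were higher (median 0.50) and 3 of 22 receptors. Of 16 type I interferon genes 0 were higher there and 3 lower. The interferon and most receptor differences were thus not seen against other neutrophils, and were not shown to be particular to cytokine-rich cells. Cytokine-rich cells differed in quality measures too: their median mitochondrial share was 0.186% to 0.232%, against 0.544% to 0.823% in SiglecF-gate cells, whose median depth was 7688 to 9081 UMIs. The part of these in the differences was not tested beyond thinning to 3000 UMIs, which left 973 genes.

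Nfkbia stood at 3469, 4319, 6413 and 4420 CPM in cytokine-rich cells, against 1625, 1502, 2115 and 1656 CPM in SiglecF-gate neutrophils, a log2 fold change of 1.75 ± 0.12 (SE, n = 4 libraries, edgeR adjusted p = 3.4e-08). Tnfaip3 rose by 1.89 ± 0.14, Nfkbiz, an inducible IkB family regulator, by 1.75 ± 0.13 and Icam1 by 1.34 ± 0.13. Levels of Icam1 were 939, 1344, 915 and 893 CPM in cytokine-rich cells, against 455, 629.9, 512 and 435 CPM in SiglecF-gate neutrophils. Il1f9, which encodes the cytokine IL-36gamma, had 300.1, 279.8, 399 and 531 CPM in cytokine-rich cells, against 54.8, 28.5, 31.1 and 31.1 CPM in SiglecF-gate neutrophils, a log2 fold change of 3.60 ± 0.25 (SE, n = 4 libraries, edgeR adjusted p = 8.2e-08). The neutrophil protease Asprv1 and the glycoprotein Lrg1 rose by 3.49 ± 0.25 and 3.0 ± 0.22. For Lrg1, which was lower than in other neutrophils, the level was 249, 246, 303 and 296 CPM in cytokine-rich cells, against 32.9, 62.7, 33.8 and 55.5 CPM in SiglecF-gate neutrophils, so cytokine-rich cells lay between the other classes. The platelet-activating factor receptor Ptafr, the calcium-binding S100a6, the sphingomyelin synthase Sgms2, the triglyceride synthase Dgat2, Marcksl1 and Dusp1 completed the leading higher genes, at 1.81 to 2.65. Against other neutrophils Ptafr and Marcksl1 did not pass, at 0.08 ± 0.15 and 0.09 ± 0.14, and Dusp1 was lower, at -0.55 ± 0.11.

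Among the lower genes, the metallothionein Mt1 had 238, 240.3, 189 and 143 CPM in cytokine-rich cells, against 839, 781, 1078 and 1345 CPM in SiglecF-gate neutrophils, a log2 fold change of -1.91 ± 0.21 (SE, n = 4 libraries, edgeR adjusted p = 1.4e-05). Rgs1, which damps chemokine receptor signalling, had 224, 219, 102 and 332 CPM in cytokine-rich cells, against 922, 1015, 283 and 1017 CPM in SiglecF-gate neutrophils (-1.51 ± 0.16). The mitochondrial complex I gene mt-Nd1 had 154, 143, 168 and 245 CPM in cytokine-rich cells, against 482, 570.1, 448 and 622 CPM in SiglecF-gate neutrophils (-1.25 ± 0.16). Adamdec1, a secreted metalloprotease, gave 2 UMIs in all cytokine-rich cells and 219 in SiglecF-gate cells. The ratio for SiglecF-gate over cytokine-rich cells was 62.5 (exact 95% interval from pooled counts 17.1 to 519.7, counting error only). The calcium exchanger Slc8a1, the phosphomevalonate kinase Pmvk, Gpd1l, Zdhhc14, Cytip, Osbpl9, Smpdl3a and H2afy had log2 fold changes of -3.23 to -1.12. Each of these leading genes that entered a fit kept its call in every alternative.

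Between genotypes, the cytokine-rich cells differed in few genes. The comparison asks what tumours that also carry floxed Pygo2 alleles change in these cells. Of 4461 genes tested outside the rule, 2 (0.0448%) passed, 1 (0.0224%) higher and 1 (0.0224%) lower in TKO, and both TKO-labelled libraries were on 1 side of both DKO-labelled libraries for each. Rdh12 (ENSMUSG00000021123, chromosome 12, 79208914 to 79222665, plus strand), a retinol dehydrogenase, gave 174 and 79 UMIs in the TKO-labelled libraries and 2 and 1 UMIs in the DKO-labelled libraries, or 307 and 240.3 CPM against 3.86 and 5.10 CPM. The ratio of TKO over DKO counts was 67.3 (exact 95% interval from pooled counts 22.8 to 328, counting error only). On the log2 scale the difference was 5.83 ± 0.50 (SE, 2 libraries in each group, edgeR adjusted p = 0.0035). Without DKO replicate 1 the adjusted p was 0.10, and with a threshold of 6 cytokine UMIs 0.082. Chil3 (ENSMUSG00000040809, chromosome 3, 106147554 to 106167564, minus strand), the chitinase-like protein Ym1 of activated myeloid cells, gave 26.5 and 9.12 CPM in TKO-labelled and 525 and 469 CPM in DKO-labelled libraries, a log2 fold change of -4.76 ± 0.42 (edgeR adjusted p = 0.0035). It was -5.81 without TKO replicate 1 and passed in all alternatives; reads of its near-identical neighbour Chil4 make the assignment uncertain.

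The next genes by p did not pass. Mmp8 had 5.30 and 6.08 CPM in the TKO-labelled libraries and 73.3 and 102 CPM in the DKO-labelled libraries (edgeR adjusted p = 0.058). The counts were 5 UMIs against 58, a ratio of 0.0688 (exact 95% interval from pooled counts 0.0215 to 0.170, counting error only). Ccl6, a chemokine of myeloid cells, had 229.5, 371, 913 and 1164 CPM in TKO 1, TKO 2, DKO 1 and DKO 2 (-1.89 ± 0.30). At an unadjusted p under 0.05 there were 240 of 4461 genes, close to the share of 0.05 that no difference would give. DESeq2 called 7 genes. The inflammatory genes that set these cells apart from other neutrophils did not pass between genotypes. Icam1 differed by 0.24 ± 0.25, Nfkbia by -0.57 ± 0.24, Tnfaip3 by -0.30 ± 0.24 and Il1b by -0.45 ± 0.22; of 22 NF-kB targets 0 passed, with a median of 0.02 against -0.00 over all genes tested. Of 11 tested chemokines 0 passed, and 10 had negative fold changes, with a median of -0.76. The median of -0.00 over all genes tested means that negative and positive fold changes were about equally common there. Cxcl2 had 24621, 18949, 38074 and 29661 CPM in the same order (-0.73 ± 0.21) and Ccl3 had 2179, 1274, 4419 and 2526 CPM (-1.10 ± 0.34). For both, the DKO-labelled libraries were the higher and did not overlap the TKO-labelled libraries. With 2 against 2 libraries such a separation can give no exact permutation p below 0.33, and its share over all genes was not counted. Neither gene was near passing, with edgeR adjusted p = 0.70 for Cxcl2 and 0.86 for Ccl3. DKO replicate 1, which was also highest for the selecting cytokines, was the highest for both.

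**Figure D5:**
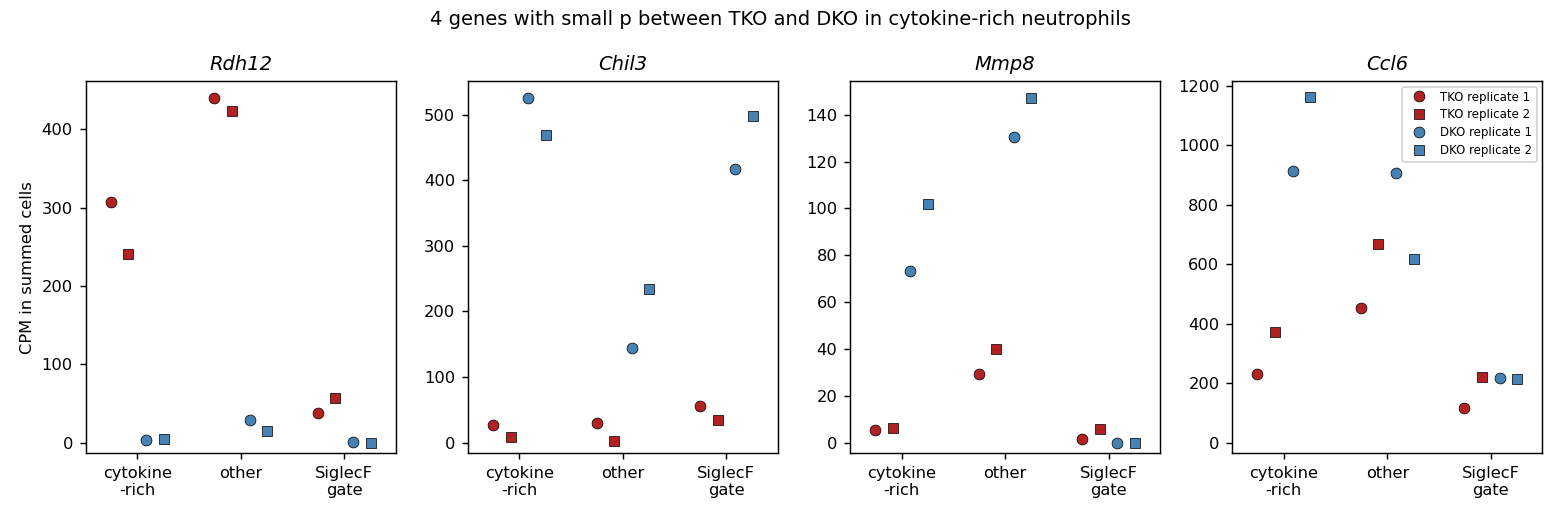
CPM per library of 4 genes among those with the smallest p between TKO and DKO in cytokine-rich cells, shown in cytokine-rich, other and SiglecF-gate neutrophils (red TKO, blue DKO, circle replicate 1, square replicate 2). In cytokine-rich cells Rdh12 lies at 307 and 240.3 CPM in TKO and at 3.86 and 5.10 CPM in DKO, and Chil3 at 26.5 and 9.12 CPM in TKO and at 525 and 469 CPM in DKO.

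Neither gene was shown to be particular to cytokine-rich cells. In other neutrophils Rdh12 stood at 439.9 and 424 CPM (TKO-labelled) against 28.3 and 15.1 CPM (DKO-labelled) and Chil3 at 29.5 and 2.0 CPM (TKO-labelled) against 144 and 234 CPM (DKO-labelled). SiglecF-gate neutrophils had Rdh12 at 38.4 and 57.0 CPM (TKO-labelled) against 1.35 and 0 CPM (DKO-labelled) and Chil3 at 55.6 and 34.2 CPM (TKO-labelled) against 416 and 497 CPM (DKO-labelled). The 0 of Rdh12 in DKO replicate 2 allows up to 6.66 CPM (3 counts). In the direction of the genotype difference the classes were alike for both genes, every TKO-labelled library lying above every DKO-labelled library for Rdh12 and below for Chil3. The interaction of class and genotype was tested for 4389 genes, of which 0 (0%) passed with edgeR and 0 with DESeq2. An unadjusted p under 0.05 was seen for 215 of them, close to the share of 0.05 that no difference would give. The TKO effect in cytokine-rich cells minus that in other neutrophils was 1.82 ± 0.74 for Rdh12 and -1.19 ± 0.64 for Chil3. The smallest p belonged to Hspa1b (-4.21 ± 0.69, edgeR adjusted p = 0.075). Hspa1b had 21.2, 18.2, 34.7 and 20.4 CPM in cytokine-rich cells, against 583, 162, 21.8 and 37.7 CPM in other neutrophils (TKO 1, TKO 2, DKO 1 and DKO 2). Other neutrophils of the TKO-labelled libraries were thus above the rest of these sums. Hspa1b also stood at 409 CPM in interferon-gate neutrophils of TKO replicate 1, against 25.4, 79.4 and 70.5 CPM in those of the other libraries, and at 113 CPM in SiglecF-gate neutrophils of DKO replicate 2. Without DKO replicate 2, which had 28 cytokine-rich cells, 24 genes passed. Nt5e, Prr5l and Clic4 followed among the smallest p, at -1.87, 3.86 and 1.72, and did not pass.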

How the data were processed

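Mouse prostate tumour cells were profiled with 10x Genomics 3' v3.1 chemistry. The deposited values are raw UMI counts per gene and cell, with hashtag counts in the same tables; reads were processed with Cell Ranger 7.0.0 and STAR against mm10, per the submitters' processing notes. Nothing in the labels says that replicates are separate animals, so p-values measure only how far these libraries differ, and that may be technical. Nor is any step that removes doublets given in the sources used here, and no doublet caller was run. Of 3508 barcodes, 3381 passed a minimum of 200 genes and a limit of 20% mitochondrial UMIs. Members, gene lists and tests were chosen with earlier results of these data known.

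Counts were summed per library and class and tested with edgeR 4.0.16 (R 4.3.3, TMM scaling, filterByExpr, robust quasi-likelihood test), adjusted by Benjamini-Hochberg at 0.05 over all genes that passed the filter, except the 20 genes of the rule. The test was tried on simulated counts with a fixed dispersion, no library differences and no choice of cells on expression. That setting is simpler than these data and does not check the test for them. TKO was compared with DKO over 4 libraries; classes were compared with a library term. Standard errors are those implied by the fold change and its test statistic. Named genes were up to 12 each way with the smallest p, all libraries on 1 side and at least 20 CPM, or the 5 with the smallest p where fewer than 3 passed, plus up to 6 per list (3 between genotypes). Predicted genes are not named, and some items that the rule names are not reported here. The SiglecF-gate comparison and a filter on cells of other lineages were added after seeing the data. Alternatives were RLE scaling, DESeq2 1.42.0, no filter, other cytokine thresholds, thinning, depth matching, a stricter mitochondrial limit, a replicate block and leaving out each library. Gene IDs were matched to GENCODE for 32158 of 32285 genes. Binomial intervals were computed with scipy 1.17.1, cover counting error only, and figures were drawn with matplotlib 3.10.9.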

Additional observations from a re-analysis of the deposited data

Results flagged for a closer look

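The 2 hashtags given to none of the 4 samples gave 1976 UMIs in cytokine-rich cells, 0.552% of their 358095 hashtag UMIs. These tags lie outside the main measurement, and no control sample sets their background level. Each cytokine-rich cell had the tag of its own library as the highest, which follows from separating the libraries by tag.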

How the results depend on the processing

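The share of cytokine-rich cells among gated neutrophils, 2.12 points higher in TKO, turned to -0.96 points over all kept cells and to -0.39 points when all gated neutrophils past the cytokine threshold were counted; leaving out a library gave -5.27 to 9.52 points. Between TKO and DKO, 2 genes passed; the count was 7 with DESeq2, 25 with no filter, 5 without cells of other lineages (2 or more defining UMIs) and 2 to 10 with a library left out. With the replicate block it was 9, Rdh12 and Chil3 among them; same-numbered libraries deviated together with r = 0.13 over 4473 genes, and 2 pairs cannot show that the numbers pair the samples. Against other neutrophils the count of 508 became 333 with DESeq2, 140 with no library term and 233 to 391 with a library left out. Of the 24 leading genes all kept their calls but Ccl3, Ptgs2 and Malt1 with no library term. Over all named genes and settings of that comparison, 1150 values kept direction and side of the threshold, 133 lost the call, 26 gained it and 7 changed sign without a call. The interaction count of 0 became 9 with no filter, 1 at a threshold of 3 UMIs and 0 to 24 with a library left out. Against SiglecF-gate neutrophils the count of 1650 became 1088 with DESeq2 and 973 after thinning. The cause of these moves was not tested, beyond the fewer genes, samples or UMIs that some settings use. A planned removal of cells with 3 or more UMIs of any other lineage's markers was not run, since it would have taken 219 of 235 cytokine-rich and 303 of 333 other cells. With 28 cytokine-rich cells, DKO replicate 2 limits the depth of every genotype comparison.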
